A study of Mus musculus with 6 samples.

Results

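The 4 Hox clusters of the mouse were followed in maps of trimethylated lysine 27 of histone H3 (H3K27me3) made by chromatin immunoprecipitation and sequencing (ChIP-seq) from spermatogenic cells. The clusters were taken as fixed intervals of the mm9 genome build that together span 630 kb: Hoxa (chr6:52090001-52240000), Hoxb (chr11:96040001-96240000), Hoxc (chr15:102730001-102880000) and Hoxd (chr2:74480001-74610000). Every call overlapping an interval was kept. Of the peaks called with MACS2 these were 32 of 32271 in control 1, 28 of 31863 in control 2, 17 of 42363 in mutant 1 and 23 of 32094 in mutant 2. Of the 200-bp bins called with hiddenDomains, a caller for broad marks, they were 2382 of 266948, 2405 of 271287, 2467 of 254302 and 2351 of 223219 in the same order. The choice of intervals used no measured value.

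Controls were MvhCre;Ezh2fl/+ mice (2 libraries) and mutants MvhCre;Ezh2fl/fl mice (2 libraries), all 6 weeks old and of mixed background. Both genotypes carry the Cre recombinase under Mvh, a germ cell gene, so controls keep a single Ezh2 allele outside its reach and mutants none. The cells had been freed of somatic cells on Percoll and strainers, and the labels put spermatogenic cells at 90% of the preparation. The labels separate no stages of spermatogenesis, and no value used here gives the remaining EZH2. The antibody was ab6002, and 1 input per genotype has no processed file used here. Nothing in the labels says that libraries came from separate animals, so each p-value measures only the spread between these libraries, which may be technical. The lists record presence of a call, not its height, and the read depth is unknown. Because calls of a repressive mark were not assigned to single genes, neither the labelled cell type nor the deletion was checked against marker genes or Ezh2.

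Hox genes encode homeodomain transcription factors that specify position along the body axis, and their order along the chromosome follows the order in which they are used. In cells that do not use them the clusters lie under H3K27me3, which Polycomb repressive complex 2 (PRC2) deposits through its catalytic subunit EZH2 or the related EZH1. Hox clusters are among the longest continuous H3K27me3 domains of mammalian chromatin, and the CpG-rich promoters within them are typical sites of PRC2 binding.

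All 38 listed genes were found in the RefSeq gene table (GRCm38.p6), which was used for gene order only. In the direction of rising coordinates Hoxa runs from Hoxa2 through Hoxa3, Hoxa4, Hoxa5, Hoxa6, Hoxa7, Hoxa9, Hoxa10 and Hoxa11 to Hoxa13, with Evx1, another homeobox gene, beyond it. Hoxb runs the other way, from Hoxb13 through Hoxb9, Hoxb8, Hoxb7, Hoxb6, Hoxb5, Hoxb4, Hoxb3 (whose annotated span encloses Hoxb4) and Hoxb2 to Hoxb1. Hoxc runs from Hoxc13 through Hoxc12, Hoxc11, Hoxc10, Hoxc9, Hoxc8, Hoxc6 and Hoxc5 to Hoxc4. Hoxd runs from Hoxd13, which follows Evx2, through Hoxd12, Hoxd11, Hoxd10, Hoxd9, Hoxd8, Hoxd4 and Hoxd3 (which likewise encloses Hoxd4) to Hoxd1. Genes of the highest numbers act in the posterior body and the limbs, and those of the lowest numbers in the hindbrain.

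MicroRNA genes of the mir-10 and mir-196 families lie between or within the listed genes, and both families are known to target Hox transcripts. Their mature 5p sequences (RefSeq, GRCm38.p6) are shown because they mark all 4 clusters, with the seed, bases 2 to 8, in capitals.
Mir10a mmu-miR-10a-5p, before Hoxb4 within the span of Hoxb3, on the plus strand: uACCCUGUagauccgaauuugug
Mir10b mmu-miR-10b-5p, within the spans of Hoxd4 and Hoxd3, on the plus strand: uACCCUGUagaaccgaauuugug
Mir196a-1 mmu-miR-196a-5p, between Hoxb13 and Hoxb9 on the plus strand: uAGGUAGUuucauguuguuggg
Mir196a-2 mmu-miR-196a-5p, between Hoxc10 and Hoxc9 on the plus strand: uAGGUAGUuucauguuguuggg
Mir196b mmu-miR-196b-5p, between Hoxa9 and Hoxa10 on the minus strand: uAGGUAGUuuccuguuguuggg
The pair from Hoxb and Hoxd shares a seed and differs at 1 base outside it. The mature sequences from Hoxb13-Hoxb9 and Hoxc10-Hoxc9 are identical, and that from Hoxa differs from them at 1 base, also outside the shared seed.

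The RefSeq promoter table held 22 of the 38 genes. CG dinucleotides, which read the same on both strands, were counted in the 250 bases before each start, taking the promoter with the most CG where a gene had several. The listed promoters held between 3 and 35 CG with a median of 13, against a median of 6 over all 32851 promoters in the table. Every promoter counts in that background, without taking the one with the most CG per gene, which favours the listed genes. The 22 genes had 24 promoters. At least 10 CG were found in 15 of the 22 (68.2%), against 37.8% of all promoters, and at least 1 CG in 92.1% of all promoters. The highest and the lowest count within Hoxd are shown to give the range inside 1 cluster. Hoxd13 had 31 CG and Hoxd4 had 3, with each CG in capitals and both genes on the plus strand of GRCm38.p6.
Hoxd13: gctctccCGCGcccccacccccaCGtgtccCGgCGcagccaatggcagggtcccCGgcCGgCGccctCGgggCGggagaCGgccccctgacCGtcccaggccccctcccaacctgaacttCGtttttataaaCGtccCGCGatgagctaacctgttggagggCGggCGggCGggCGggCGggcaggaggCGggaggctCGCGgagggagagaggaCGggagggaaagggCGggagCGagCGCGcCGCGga
Hoxd4: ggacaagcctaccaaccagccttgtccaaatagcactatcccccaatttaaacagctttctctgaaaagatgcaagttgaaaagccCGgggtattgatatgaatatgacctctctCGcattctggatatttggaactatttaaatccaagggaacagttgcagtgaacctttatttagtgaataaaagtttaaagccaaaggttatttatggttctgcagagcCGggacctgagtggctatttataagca
These counts describe the letters alone, since the calls are in another build and were not placed on promoters.

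Each cluster was covered over most of its length by H3K27me3 calls in all 4 libraries of both genotypes, least in Hoxb, at 74.0% to 78.3% by MACS2 and 67.0% to 71.5% by hiddenDomains. By MACS2, 484.6 kb of the 630 kb (76.9%) were called in every library and 82.6 kb (13.1%) in none. In both controls and neither mutant 0.379 kb was called, and in both mutants and neither control 10.2 kb. These patterns were not counted over the genome, so the imbalance is not read as a trait of the Hox clusters. By hiddenDomains, 448.4 kb was called in every library, 5.4 kb in both controls alone and 5.8 kb in both mutants alone. Bases called in both controls were thus missing from both mutants over less than 1% of the intervals with either caller.

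**Figure D1:**
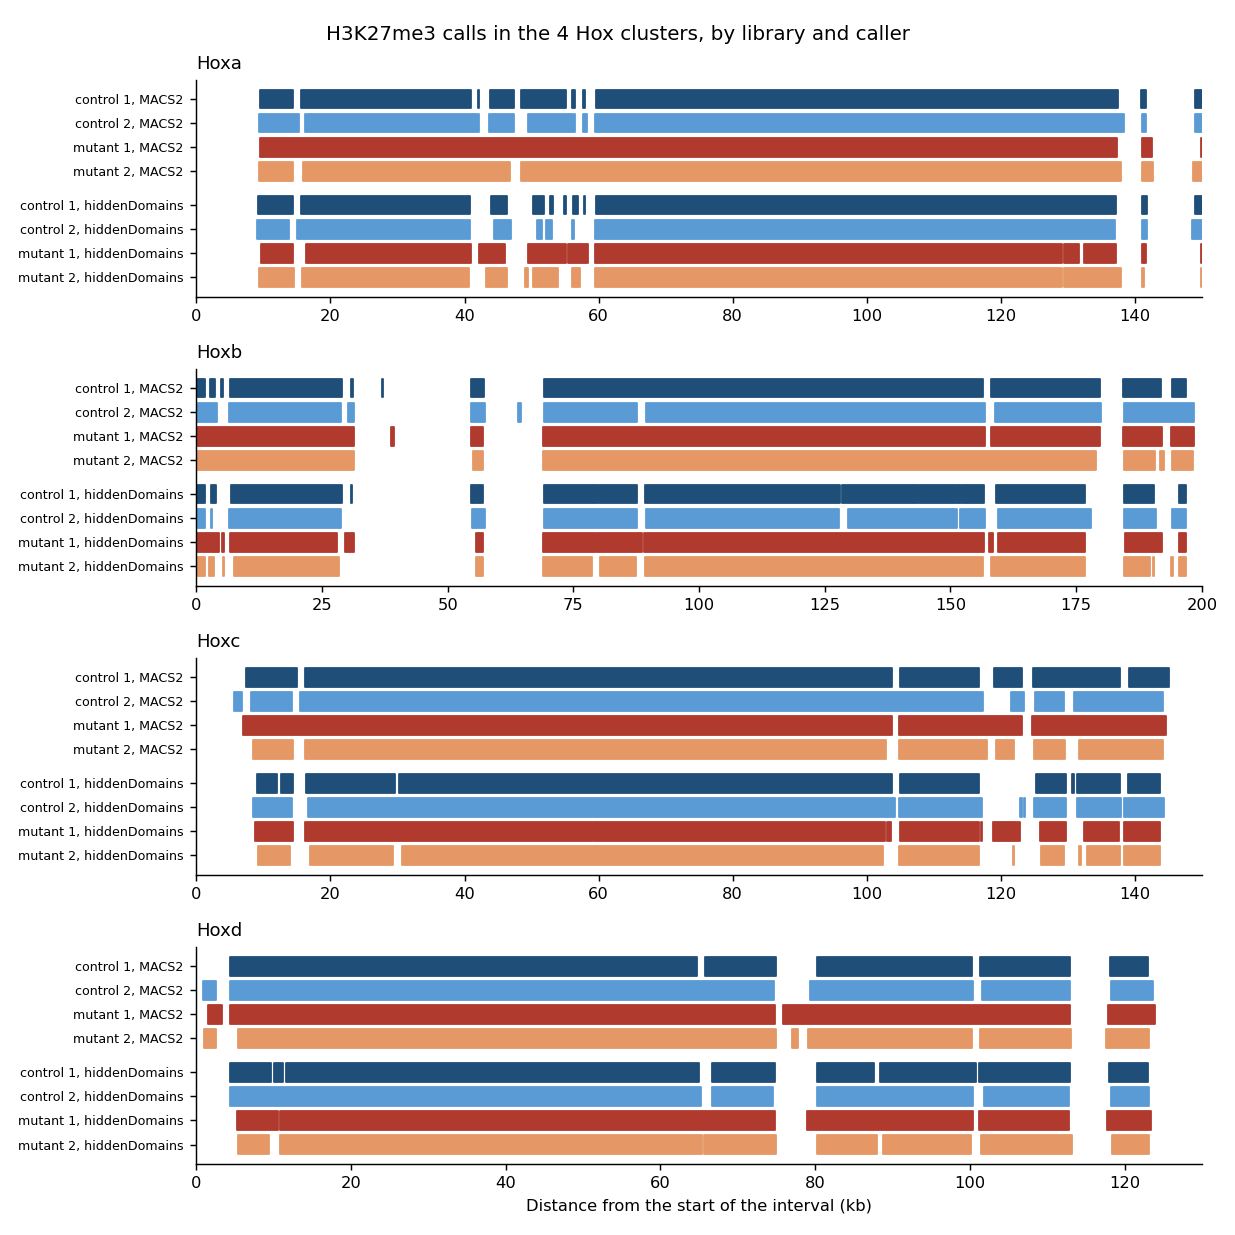
Joined calls (bars) along each Hox interval, by distance from the interval's start in kb, for 2 control (blue) and 2 mutant (red and orange) libraries, by MACS2 (upper 4 tracks) and hiddenDomains (lower 4 tracks). The long blocks and the gap in Hoxb recur in all tracks, while Hoxa between 40 and 60 kb is more broken in the controls.

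Windows this densely covered were rare over the rest of the genome. In 10-kb windows, 34 of the 63 Hox windows (54.0%) were covered over at least 90% of their length by MACS2 peaks in all 4 libraries, against 243 of 263658 windows (0.0922%) over all autosomes and the X. They were 9 of 15 windows in Hoxa, 9 of 20 in Hoxb, 8 of 15 in Hoxc and 8 of 13 in Hoxd. With hiddenDomains bins the count was 31 of 63 Hox windows against 197 windows in all (0.0747%). In each library exactly 4 joined MACS2 peaks exceeded 50 kb, and all 4 were in Hox intervals. The widest was 87.6 kb in control 1, 101.9 kb in control 2, 127.8 kb in mutant 1 and 109.9 kb in mutant 2. The widest peak elsewhere measured 39.8, 39.8, 46.9 and 39.2 kb in the same order. The widest Hox peak thus exceeded the widest peak elsewhere in each library of both genotypes.

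Overlap between libraries was described with the Jaccard index, which rises with the share of bases called. That share was 80.2% to 85.1% within the clusters by MACS2, so values there have a far higher starting point than over the genome, and no excess is read from them. The index, the bases called in both libraries of a pair over the bases called in either, ran from 0.929 to 0.950 over the 6 pairs within the clusters, against 0.545 to 0.703 over the genome (MACS2). With hiddenDomains it ran from 0.909 to 0.951 within the clusters, against 0.660 to 0.800. Within the clusters, control 1 and control 2 had an index of 0.936 by MACS2, the mutants 0.950, and the 4 pairs of a control with a mutant 0.929 to 0.935. By hiddenDomains the controls had 0.951, the mutants 0.926, and the unlike pairs 0.909 to 0.938, so unlike pairs did not all lie below like ones. The mean of like pairs exceeded that of unlike pairs by 0.0115 (MACS2) and 0.0157 (hiddenDomains), with no test. The overlap of the 2 callers has the same dependence on coverage. Between 90.5% and 93.7% of Hox peak bases lay in hiddenDomains bins, against 60.1% to 76.1% of peak bases genome-wide, and 97.9% to 98.3% of Hox bins carried the top display score of 1000, against 91.0% to 93.1%.

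**Figure D2:**
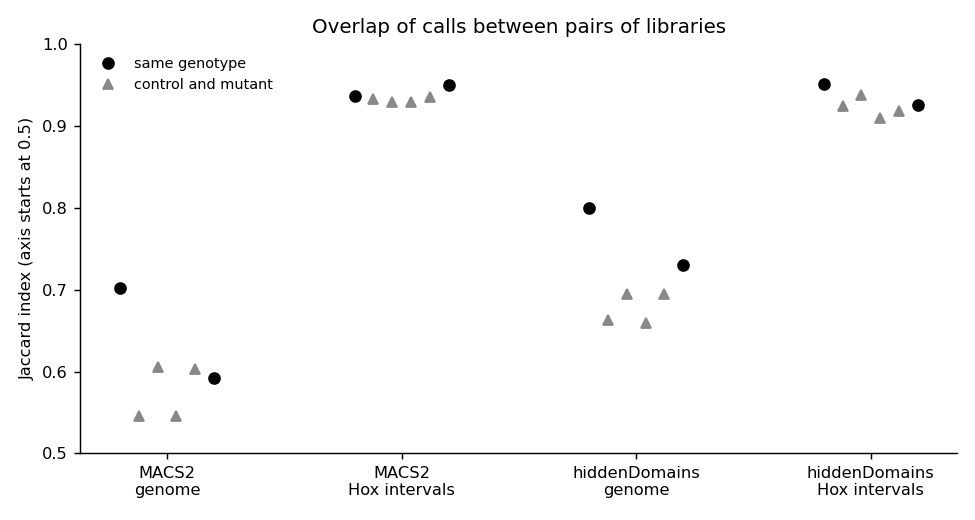
Jaccard index (y axis, no unit) for each of the 6 pairs of libraries (points; black circles, same genotype; grey triangles, control and mutant), over the genome and within the 4 Hox intervals, by caller. All indices within the Hox intervals lie at 0.909 or above, while those over the genome do not exceed 0.800.

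Covered length was compared first between genotypes over all 4 clusters. MACS2 peaks covered 505.5 kb in control 1, 514.2 kb in control 2, 536.4 kb in mutant 1 and 518.6 kb in mutant 2. Both mutants lay above both controls, with means of 509.9 ± 6.19 kb (SD, n = 2) and 527.5 ± 12.6 kb (SD, n = 2). The difference of 17.7 kb had a two-sided exact permutation p of 0.333, the smallest that 2 against 2 libraries allow, and a Benjamini-Hochberg value of 0.583 over 14 comparisons. By hiddenDomains the groups overlapped, at 476.4 and 481.0 kb in controls and 493.4 and 470.2 kb in mutants (difference 3.1 kb, exact permutation p of 1). The MACS2 direction also rests on the scale: with library totals made equal the mean difference was -9.66 kb. Mutant 1 then lay at 463.9 kb and mutant 2 at 570.9 kb, on either side of the controls at 532.4 and 521.7 kb. Mutant 1 had the most MACS2 calls of any library, 82.0 Mb over the genome against 64.4 to 69.8 Mb in the others, and without it the difference was 8.77 kb. Its part in the result was not tested.

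In Hoxa, MACS2 peaks covered 121.1 and 123.9 kb in controls and 129.5 and 128.2 kb in mutants. In Hoxb they covered 147.9 and 151.7 kb in controls and 156.6 and 154.5 kb in mutants. In Hoxd they covered 106.2 and 109.8 kb in controls and 115.3 and 110.3 kb in mutants. The groups did not overlap in these 3 clusters, with the mutant mean above the control mean by 6.35, 5.67 and 4.81 kb and an exact permutation p of 0.333 each. In Hoxd the nearest libraries of the 2 genotypes, at 109.8 and 110.3 kb, were close, and the difference was 2.32 kb without mutant 1 and 7.29 kb without mutant 2. In Hoxc they overlapped: 130.3 and 128.8 kb in controls, 135.1 and 125.6 kb in mutants (exact permutation p of 1). With totals made equal all 4 mean differences were below 0: -0.067 kb in Hoxa, -2.17 kb in Hoxb, -6.37 kb in Hoxc and -1.06 kb in Hoxd. The groups then overlapped in every cluster, with mutant 1 below both controls and mutant 2 above both. In Hoxa the scaled values were 127.5 and 125.7 kb in controls, 111.9 kb in mutant 1 and 141.1 kb in mutant 2.

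Hoxa was the cluster in which both callers separated the genotypes. HiddenDomains bins covered 115.4 and 114.8 kb of Hoxa in controls and 119.6 and 117.4 kb in mutants (exact permutation p of 0.333). In the other clusters the bins gave overlapping groups. They covered 136.8, 137.6, 143.0 and 134.0 kb of Hoxb, 119.6, 123.6, 123.0 and 115.2 kb of Hoxc, and 104.6, 105.0, 107.8 and 103.6 kb of Hoxd (control 1, control 2, mutant 1, mutant 2). In these 3 clusters mutant 2 had the lowest value of the 4 libraries. Making bin totals equal multiplies each library by a genome-wide factor, which lowers both controls and raises mutant 2. A separation in these 3 clusters after scaling comes from that factor, since the values as deposited overlap. With bin totals made equal, both mutants lay above both controls in every cluster: at 119.4 and 133.6 kb against 109.8 and 107.5 kb in Hoxa, 142.8 and 152.4 kb against 130.1 and 128.8 kb in Hoxb, 122.8 and 131.1 kb against 113.8 and 115.7 kb in Hoxc, and 107.6 and 117.9 kb against 99.5 and 98.3 kb in Hoxd.

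**Figure D3:**
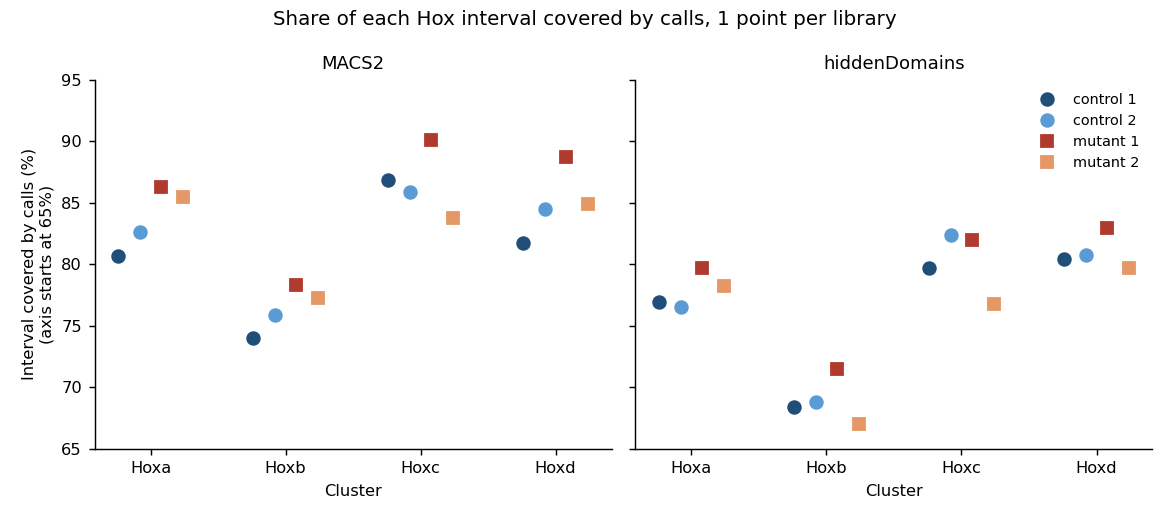
Percent of each Hox interval covered by calls (y axis, starting at 65%), 1 point per library, circles for controls and squares for mutants, by caller. By MACS2 both mutants lie above both controls in Hoxa, Hoxb and Hoxd; by hiddenDomains they do so in Hoxa only.

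Over the whole genome the bins covered less in mutants, at 53.4 and 54.3 Mb in controls and 50.9 and 44.6 Mb in mutants. The Hox clusters accounted for 0.892% and 0.887% of this total in controls and for 0.970% and 1.05% in mutants. The mutant shares were thus higher than the control shares with hiddenDomains, though covered length in the clusters overlapped between genotypes before this division. With MACS2 the shares overlapped, at 0.751% and 0.736% in controls and 0.655% and 0.806% in mutants.

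The clusters were broken into fewer pieces in mutants by MACS2. Uncovered stretches between the first and last call of a cluster numbered 28 in control 1, 24 in control 2, 13 in mutant 1 and 19 in mutant 2, summed over clusters. Hoxa had 9 and 7 such gaps in controls and 2 and 4 in mutants, and Hoxb 10 and 8 in controls and 6 and 5 in mutants. These groups did not overlap (exact permutation p of 0.333 each, Benjamini-Hochberg 0.583). Mutant 1, the library with the most peak bases over the genome, had the fewest gaps in the sum. Without it the mean difference over all clusters was -7, against -10 with it. Gaps were not counted over the genome, so the lower counts are not read as a trait of the Hox clusters. Hoxc had 5 gaps in both controls and 2 and 5 in mutants, and Hoxd 4 in both controls and 3 and 5 in mutants. By hiddenDomains the summed gaps numbered 42 and 33 in controls and 36 and 43 in mutants, so that the 2 callers differ in this respect. Its gaps in Hoxc were more in mutants, at 10 and 9 against 8 in each control (exact permutation p of 0.333). In the other clusters its groups overlapped.

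A single long block held most of the calls in each of Hoxa, Hoxb and Hoxc, and a pair of blocks did so in Hoxd. Blocks are the union of the 4 MACS2 lists. Hoxa's main block (chr6:52099357-52228388, 129.0 kb) was called as 8 and 6 pieces in controls and as 1 and 3 pieces in mutants. Hoxb's main block (chr11:96108993-96219855, 110.9 kb) was called as 2 and 3 pieces in controls and 2 and 1 in mutants. Hoxc's (chr15:102736937-102853462, 116.5 kb) was called as 4 and 3 pieces and as 2 and 4. MACS2 piece counts therefore separated the genotypes in the Hoxa block but not in those of Hoxb and Hoxc. HiddenDomains did not separate them in the Hoxa block, with 10 and 8 pieces in controls and 8 and 9 in mutants. In Hoxd the blocks chr2:74484372-74554982 (70.6 kb) and chr2:74555882-74593083 (37.2 kb) were called as 2, 1, 1 and 1 pieces and as 2, 2, 1 and 3 pieces, in the order control 1, control 2, mutant 1, mutant 2.

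The breaks of the Hoxa block in controls were concentrated in chr6:52130001-52150000, a 20-kb stretch chosen after its values were seen. MACS2 peaks covered 12.5 kb of it in control 1, 14.2 kb in control 2, 20 kb in mutant 1 and 18.3 kb in mutant 2. HiddenDomains bins covered 6.8 and 5.8 kb in controls and 14.2 and 9.8 kb in mutants. Both mutants lay above both controls with both callers. Its first 10 kb had a log2 difference of 0.44 by MACS2 (SE 0.09, limma adjusted p = 0.181) and of 0.49 by hiddenDomains (SE 0.13, limma adjusted p = 0.200). The next 10 kb had 0.48 (SE 0.11, limma adjusted p = 0.183) and 0.95 (SE 0.31, limma adjusted p = 0.215). None of the 4 values passed the adjusted threshold of 0.05. With bin totals made equal, the first window did pass (limma log2 difference 0.63, SE 0.10, adjusted p = 0.0474). That setting called 1 of 59 Hox windows and 301 of 16244 windows in all, so the Hox count is near the background.

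MACS2 called stretches in both mutants and neither control in all 4 clusters, the longest of them in the Hoxa stretch described above. In Hoxa they were chr6:52132190-52133604 (1415 bp), chr6:52138427-52138476 (50 bp), chr6:52146478-52147685 (1208 bp), chr6:52148327-52149394 (1068 bp) and, apart from these, chr6:52231706-52232570 (865 bp). In Hoxb the longer ones were chr11:96044126-96044946 (821 bp), chr11:96045306-96046512 (1207 bp) and chr11:96069024-96070193 (1170 bp), and 4 others measured 41, 75, 100 and 169 bp. Hoxc had 1, chr15:102847277-102847957 (681 bp). Hoxd had chr2:74556950-74557809 (860 bp) and 2 others of 233 and 252 bp. The reverse case, both controls and neither mutant, was limited by MACS2 to chr11:96097046-96097235 (190 bp), chr15:102833718-102833825 (108 bp) and chr15:102853100-102853180 (81 bp).

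The controls-only bins of hiddenDomains met the MACS2 ones at chr15:102833601-102833800 (200 bp). Those at chr6:52231601-52231800 (200 bp) overlapped the start of a Hoxa stretch that MACS2 called in mutants alone. The longest controls-only stretches of hiddenDomains were chr6:52239001-52239800 and chr2:74484401-74485200, 800 bp each, at the outer ends of Hoxa and Hoxd. Next came chr11:96094801-96095400 and chr15:102855201-102855800, 600 bp each. Its longest mutants-only stretch was chr2:74545601-74546600 in Hoxd (1000 bp), a stretch that MACS2 called almost whole in all 4 libraries. A pair of mutants-only stretches of 800 bp each, chr6:52133201-52134000 and chr6:52143201-52144000, lay in the Hoxa stretch described above.

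**Figure D4:**
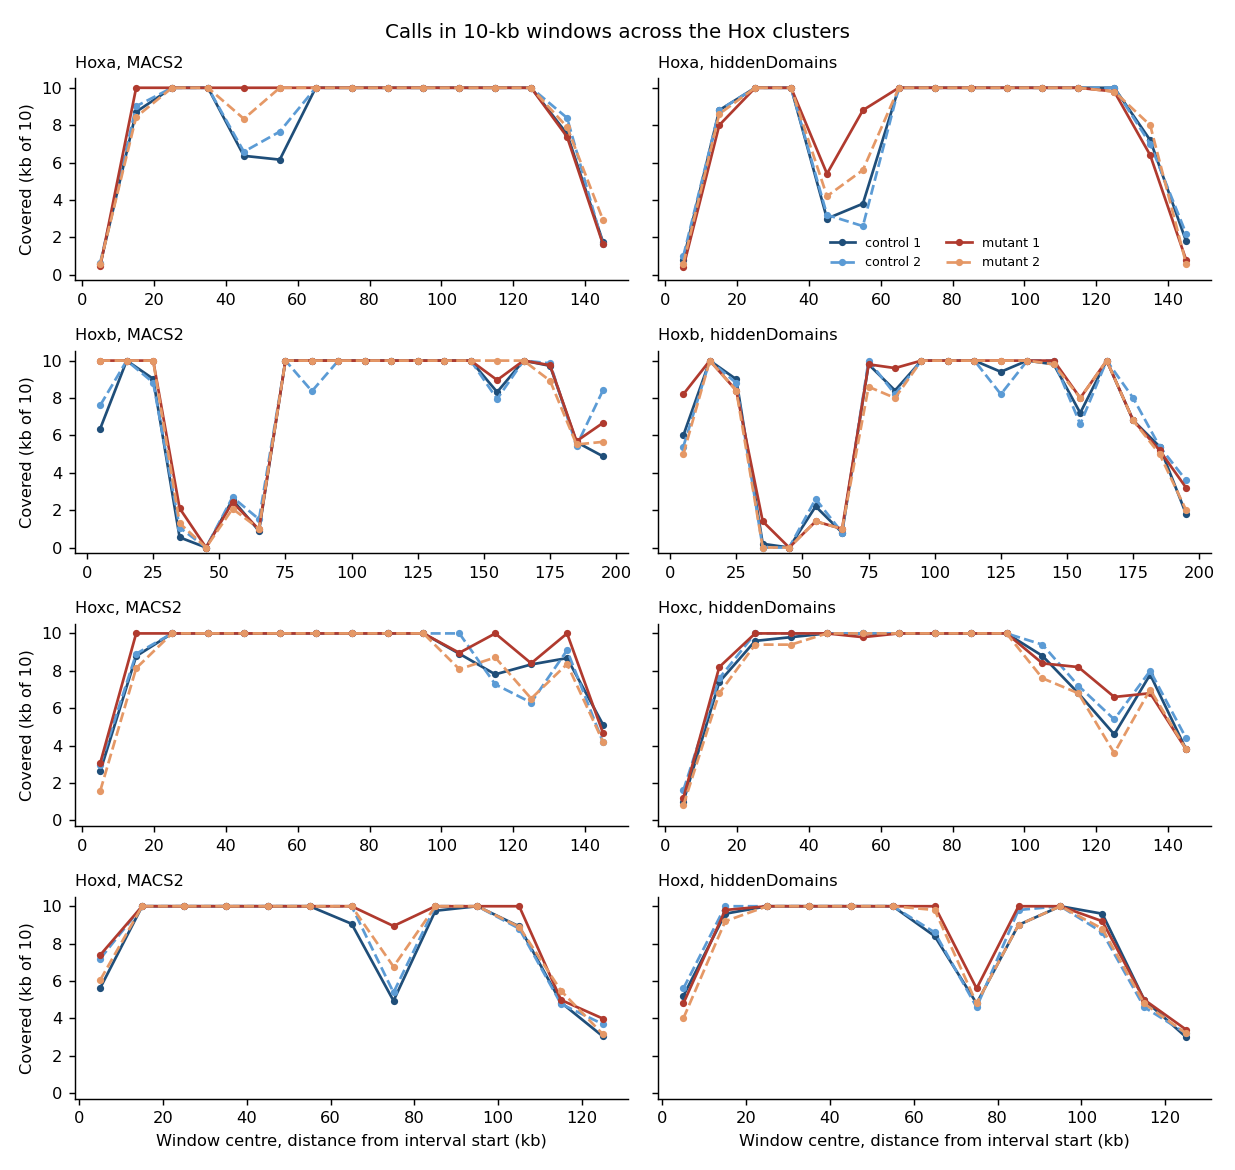
Kb covered by calls in each 10-kb window (y axis) against the window's distance from the interval start (x axis, kb), 1 line per library, by cluster and caller. Most windows sit at or near 10 kb in all libraries; Hoxa dips between 40 and 60 kb more deeply in the controls, and Hoxb falls to 0 in the same window in all 4.

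Some gaps were common to all 4 libraries. The widest stretch within a cluster that MACS2 called in no library was in Hoxb, chr11:96079343-96094616 (15274 bp), in a run of sparse calls that also held chr11:96071381-96076935 (5555 bp), chr11:96077167-96078623 (1457 bp), chr11:96097362-96103962 (6601 bp) and chr11:96104602-96108992 (4391 bp). With hiddenDomains this run of Hoxb was empty in all libraries over chr11:96071401-96094600 (23200 bp) and chr11:96097401-96109000 (11600 bp). Between these 2 lay a block called in all 4 libraries by both callers, chr11:96094617-96097361 by MACS2, which covered 2.56 and 2.70 kb in controls and 2.43 and 2.08 kb in mutants. Its hiddenDomains bins covered 2.2 and 2.6 kb in controls and 1.4 kb in each mutant, so this small block was the lower one in mutants with both callers. Hoxb had another common gap at chr11:96219856-96224310 (4455 bp).

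The common gaps of the other clusters were shorter. Hoxa had chr6:52228389-52230977 (2589 bp) and chr6:52232691-52238751 (6061 bp), both towards the Hoxa13 side of the gene order. Hoxc had chr15:102736755-102736936 (182 bp) and chr15:102853463-102854697 (1235 bp), the shortest total of the 4 clusters. Hoxd had chr2:74483260-74484371 (1112 bp), chr2:74554983-74555881 (899 bp) and chr2:74593084-74597609 (4526 bp).

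Borders of the blocks were compared over the libraries. The 12 blocks called in all 4 libraries have 24 outer borders, whose position over the 4 libraries ranged by 99 to 4359 bp with a median of 833 bp. Over the genome the median range was 507 bp, so Hox borders were not placed more tightly than others. The left border of the main Hoxa block lay at base 52099443 in control 1, 52099357 in control 2, 52099554 in mutant 1 and 52099404 in mutant 2, a range of 197 bp. That of the main Hoxb block lay at 96109110, 96109126, 96109035 and 96108993 in the same order, a range of 133 bp. The right border of the 37.2-kb Hoxd block lay at 74593006, 74592992, 74592893 and 74593083, a range of 190 bp. These 3 were among the tightest of the 24.

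Of these borders 7 separated the genotypes: 5 lay further out in both mutants (20.8% of 24, against 14.0% of 39846 borders genome-wide) and 2 further in (8.33%, against 34.8%). The largest shift was at the left border of the 37.2-kb Hoxd block, which lay at base 74560241 in control 1, 74559308 in control 2, 74555882 in mutant 1 and 74556950 in mutant 2. The mean mutant position minus the mean control position was -3358.5 bp, so that mutant calls reached further into the gap. In mutant 1 a single peak ran from base 74555882 to 74592893. In mutant 2 the border was the start of a separate small peak, chr2:74556950-74557809, and its next peak began at base 74559075, near the start in control 2. The border on the other side of that gap, the right end of the 70.6-kb block, ranged by 289 bp. HiddenDomains bins did not separate the genotypes in that 10-kb window, at 4.8 and 4.6 kb in controls and 5.6 and 4.8 kb in mutants. Measured the same way, the other outward shifts were 937 bp at a right border in Hoxa, 159 bp at a right and -104 bp at a left border in Hoxb, and -433 bp at a left border in Hoxd. The inward shifts, both at right borders, were -276.5 bp in Hoxb and -771.5 bp in Hoxc. Of the smaller outward shifts, hiddenDomains shared the left one in Hoxb, at base 96109001 in both mutants and 96109201 in both controls. It reversed the one in Hoxa, at base 52231600 in mutant 1, 52231400 in mutant 2 and 52231800 in both controls. At the left border in Hoxd its groups overlapped, and at the right border in Hoxb it had bins in control 1 and mutant 1 alone.

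**Figure D5:**
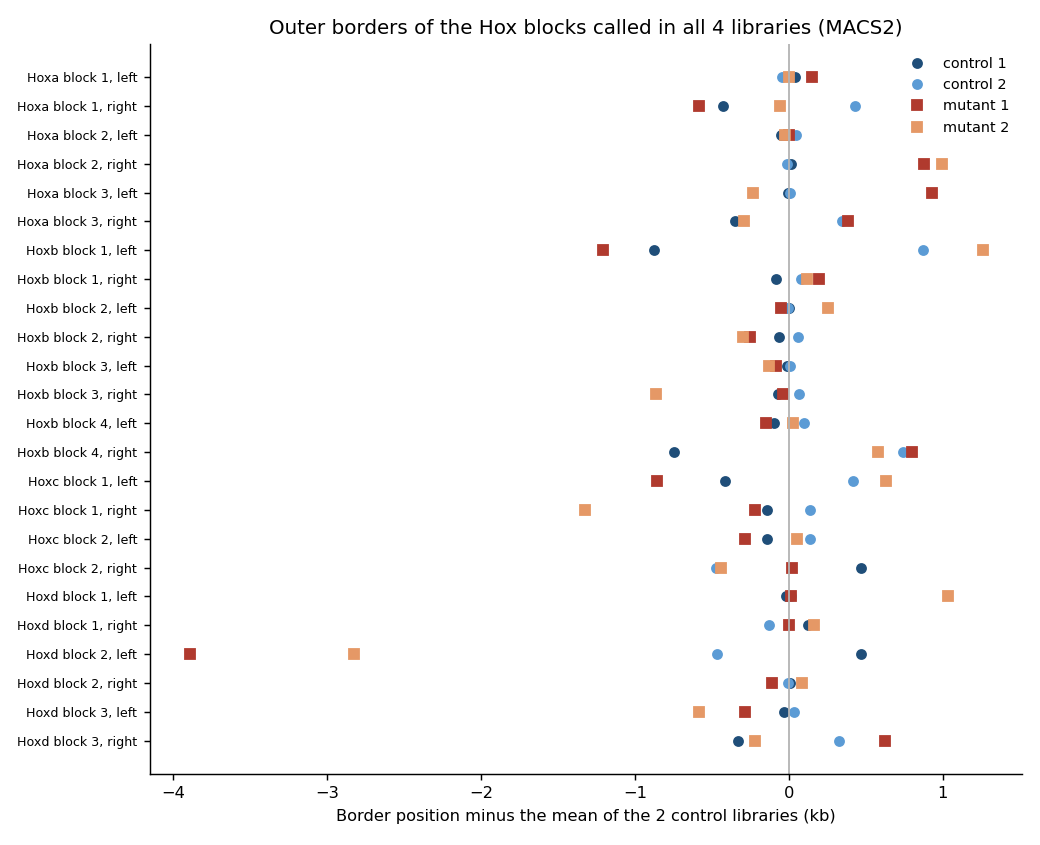
Position of each outer border (rows) of the Hox blocks called in all 4 libraries by MACS2, in kb relative to the mean of the 2 controls; circles, controls; squares, mutants; blocks numbered by rising coordinate within a cluster. Most points lie within 1 kb of 0, and the left border of the second Hoxd block stands apart in both mutants. In mutant 2 that border is the start of a small separate peak.

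The outer span of calls, from the first to the last base of the peaks touching an interval, was 143.5 and 144.3 kb in controls and 144.1 and 143.6 kb in mutants for Hoxa. It was 207.6, 208.8, 211.0 and 208.3 kb for Hoxb, where calls run past the interval's start, and 118.7, 122.8, 122.5 and 122.1 kb for Hoxd, in the order control 1, control 2, mutant 1, mutant 2. The groups overlapped in these 3 clusters. Hoxc spanned 137.8 and 138.6 kb in controls and 137.7 and 135.8 kb in mutants, which narrowly did not overlap (exact permutation p of 0.333, Benjamini-Hochberg 0.583). These spans are by MACS2. By hiddenDomains mutants were shorter in Hoxb, at 205.2 and 206.4 kb against 207.4 and 206.6 kb in controls. They were also shorter in Hoxd, at 118.2 and 117.8 kb against 118.6 and 118.8 kb in controls. The Hoxb span of mutant 1 starts after a break of 0.4 kb in its bins. Before that break its bins began at base 96028201, further out than in control 1 (96029401) or control 2 (96030201). The hiddenDomains groups overlapped in Hoxa and Hoxc.

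Beyond the intervals the clusters differed from each other more than the genotypes did. In the 100 kb before Hoxd, on the side of Hoxd13, no MACS2 peak was called in any library, and in the 100 kb after it 2.35 and 2.79 kb in controls and 1.84 and 2.07 kb in mutants (hiddenDomains, 1.6 and 2.4 kb against 1.2 kb in each mutant). Hoxa had 7.32 and 8.87 kb before it in controls and 11.7 and 7.67 kb in mutants by MACS2, against 6.6 kb in each control and 4.6 and 4.4 kb in mutants by hiddenDomains. After Hoxa MACS2 gave 28.0 and 28.7 kb in controls and 27.7 and 26.0 kb in mutants. By hiddenDomains the groups there overlapped, at 25.0 and 24.8 kb in controls and 25.4 and 24.2 kb in mutants. Hoxc had 1.95 to 4.50 kb before it and 37.9 and 40.0 kb after it in controls, against 53.8 and 44.8 kb in mutants. Hoxb had 24.7 and 24.8 kb before it in controls and 15.7 and 14.9 kb in mutants, and by hiddenDomains 16.6 and 18.8 kb against 12.2 and 9.6 kb. After Hoxb MACS2 gave 22.6 and 21.1 kb in controls and 27.7 and 23.8 kb in mutants. There the hiddenDomains groups overlapped, at 14.2 and 12.6 kb in controls and 16.2 and 12.4 kb in mutants. Both callers thus gave less flanking coverage before Hoxb and after Hoxd in mutants and more after Hoxc, where hiddenDomains had 24.6 and 23.8 kb in controls and 35.0 and 25.2 kb in mutants. These flanks were described with no test. They were not set against other parts of the genome, so none of these directions is read as a trait of the flanks.

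Single windows of the clusters were then set against a genome-wide fit of mutant against control, by limma on log2(kb covered by hiddenDomains bins + 1) in 10-kb windows. The fit held 16244 windows, those covered on average by 1 kb or more, and 131 passed the adjusted threshold of 0.05 (0.806%), 15 higher and 116 lower in mutants. With totals made equal, 301 passed, 130 higher and 171 lower. Of the 63 Hox windows 59 were tested and 0 passed. At an unadjusted limma p under 0.05, 8 Hox windows differed (13.6%, against 22.3% of all windows), 3 of them higher (5.08%, against 3.32%) and 5 lower (8.47%, against 18.96%). Counts near or below the background are no result about the Hox windows. The median log2 difference was 0 in the Hox windows and -0.10 over all windows tested, and 0.16 and 0.03 with totals made equal.

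In the same windows both mutants lay above both controls in 5 of 59 by hiddenDomains (8.47%, against 7.91% of all windows) and below them in 9 (15.3%, against 37.1%). By MACS2, 61 Hox windows were tested, 9 lay above (14.8%, against 20.7%) and 1 below (1.64%, against 32.4%). At an unadjusted limma p under 0.05 by MACS2, 7 were higher (11.5%, against 8.71%) and 0 lower (against 9.28%), and none of them passed the adjustment. With totals made equal, 45 of 59 Hox windows lay above by hiddenDomains (76.3%, against 28.9% of all windows) and 3 below (5.08%, against 22.3%). By MACS2 it was 6 of 61 above (9.84%, against 16.7%) and 5 below (8.20%, against 31.9%). Windows that were fully covered in all 4 libraries, 24 by hiddenDomains and 32 by MACS2, cannot separate the genotypes as deposited, since coverage has a ceiling of 10 kb, and once totals are made equal they differ by the scaling alone.

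The lowest adjusted p among the Hox windows was at chr2:74540001-74550000 in Hoxd. Its bins covered 8.4 kb in control 1, 8.6 kb in control 2, 10 kb in mutant 1 and 9.8 kb in mutant 2. The log2 difference was 0.20 (SE 0.02, limma adjusted p = 0.0744), and MACS2 covered 9.06 kb in control 1 and 10 kb in the others. Among lower windows, chr6:52230001-52240000 at the end of Hoxa had 1.8 and 2.2 kb in controls and 0.8 and 0.6 kb in mutants (log2 difference -0.82, SE 0.11, limma adjusted p = 0.110). MACS2 did not share that direction, with 1.75 and 1.62 kb in controls and 1.63 and 2.94 kb in mutants. With bins of score 1000 alone this window passed (1.6 kb in each control and 0.6 kb in each mutant, limma log2 difference -0.70, SE 0.03, adjusted p = 0.0474). That setting called 1 of 58 Hox windows and 157 of 15177 windows in all, so the Hox count is near the background.

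With both callers at once, both mutants lay above both controls in 3 of 59 Hox windows (5.08%, against 4.64% of the 16133 windows tested with both) and below them in 1 (1.69%, against 23.5%). The higher ones were the 2 windows of the Hoxa stretch and chr11:96190001-96200000 in Hoxb, and the lower one was chr11:96090001-96100000, which holds the small Hoxb block described above. The Hoxb window at chr11:96190001-96200000 had 7.2 and 6.6 kb of bins in controls and 8.0 kb in each mutant, and 8.32 and 7.95 kb of MACS2 peaks in controls and 8.96 and 10 kb in mutants. Its log2 difference was 0.19 by hiddenDomains (SE 0.05, limma adjusted p = 0.184). The start of Hoxb, chr11:96040001-96050000, was split by caller. MACS2 peaks covered 6.37 and 7.61 kb in controls and all 10 kb in both mutants, while bins covered 6.0 and 5.4 kb in controls and 8.2 and 5.0 kb in mutants, which overlapped.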

How the data were processed

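The authors deposited 1 list of MACS2 peaks (chromosome, start and end only) and 1 list of hiddenDomains bins for each of the 4 ChIP libraries. The deposited bins carry a display score of unstated meaning. The submitters' processing notes name mm9, Bowtie, SAMtools and bedtools. Tool versions, calling thresholds, control tracks and read depth were not given in the sources used. Deeper or cleaner libraries can yield more and wider calls, so covered lengths are not corrected for depth.

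Touching calls of a library were joined, clipped to the intervals and measured in base pairs, with positions counted from 1. Covered length, gaps and outer span were tested by exact permutation, two-sided (scipy 1.17.1), 14 in all, with Benjamini-Hochberg adjustment. Windows of 10 kb were fitted with limma 3.58.1 (R 4.3.3, eBayes with trend) on log2(kb + 1), a scale that understates changes of sparse windows. Both steps were tested on simulated data. The members, lists and tests were chosen with earlier results of these data known. Named are the common gaps, the stretches MACS2 called in 1 genotype alone (short ones by length) and the outer borders. No mm9 annotation was used, so calls were not placed on single genes.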

Additional observations from a re-analysis of the deposited data

How the results depend on the processing

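The exact tests of 2 against 2 libraries cannot pass a threshold of 0.05, so directions and sizes are given here. With library totals made equal, the mutant minus control difference in covered length turned to -9.66 kb over all clusters, -0.067 kb in Hoxa, -2.17 kb in Hoxb, -6.37 kb in Hoxc and -1.06 kb in Hoxd. In each of these cases mutant 1 lay below both controls and mutant 2 above both, so the groups overlapped. With hiddenDomains bins the difference in covered length turned to -2.5 kb in Hoxc (-3.3 kb with score 1000 alone). The difference in gaps turned from -10 to 2 over all clusters, from -3.5 to 0.5 in Hoxb and from -1.5 to 1.5 in Hoxc, and with score 1000 alone to 1.5, 1 in Hoxc and 0.5 in Hoxa. The outer span turned to -1.2 kb in Hoxb and -0.7 kb in Hoxd with bins, and to -1.0 and -0.8 kb with score 1000 alone. With bins the Hoxb span of mutant 1 starts after a 0.4-kb break, before which its bins reach further out than those of either control. The Jaccard difference of like over unlike pairs was 0.0157 with bins and 0.0115 with peaks. Over the removal of each library in turn, covered length differed by -3.91 to 5.59 kb in Hoxc (the lowest without mutant 1), by 8.77 to 26.6 kb over all clusters, by 2.32 to 7.29 kb in Hoxd, and span by -0.42 to 0.36 kb in Hoxa and -0.45 to 3.67 kb in Hoxd (the lowest without control 1). The cause was not tested in any of these cases.

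The genome-wide count of 131 called windows was 0 with MACS2 peaks (3886 at an unadjusted limma p under 0.05), 0 with 20-kb windows (3485), 0 with a pseudocount of 0.1 kb (3581), 658 with 5-kb windows, 1719 with no coverage minimum and 301 with totals made equal. It was 245 with MACS2 totals made equal, an alternative chosen after seeing the data. Without single libraries it was 0 to 2609, 0 without either control and 2586 and 2609 without mutant 1 or mutant 2. The lone library was then assumed to vary like the other group. Among the Hox windows, 1 passed with 5-kb windows (chr6:52215001-52220000, 5.0 kb in each control and 4.8 kb in each mutant, 1 bin apart), 1 with totals made equal, 1 with score 1000 alone, and 0 to 3 without single libraries (2 without mutant 1 and 3 without mutant 2). The Hox windows tested were 108 with 5-kb windows, 59 with totals made equal and 58 with score 1000 alone. Over all windows 658 of 18421, 301 of 16244 and 157 of 15177 passed in the same order. The single Hox windows are thus near or below the background and are no result about the clusters. The Hox counts without single libraries stand beside the genome-wide counts given above, and are no result either. Same-numbered libraries did not deviate together (correlation 0.04 over 16244 windows), which cannot say whether they were prepared as pairs. With a replicate block in limma 0 windows passed over the genome and 0 in Hox (3179 and 7 at an unadjusted p under 0.05), and the covered length over all clusters differed by the same 17.7 kb.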
